A study of Mus musculus with 6 samples.

Results

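The colony-stimulating factors Csf1 (M-CSF), Csf2 (GM-CSF) and Csf3 (G-CSF) and the receptor chains Csf1r, Csf2ra, Csf2rb, Csf2rb2, Csf3r, Il3ra and Il5ra were described in RNA of mouse CD8T cells recovered from coculture. These 10 genes were chosen by name among the 54532 genes of the count table, and 9 of them had enough counts to be tested. The rule used family membership, and the group was chosen with earlier results of these data known.

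Colony-stimulating factors are secreted proteins that keep myeloid cells and their precursors alive and drive their growth and maturation. Csf1r is a tyrosine kinase that dimerizes when Csf1 binds, Csf3r is a single-chain cytokine receptor, and Csf2ra, Il3ra and Il5ra are the ligand-specific alpha chains of the receptors for Csf2, IL-3 and IL-5. These alpha chains signal through a shared beta chain, Csf2rb, and mice carry a further beta chain, Csf2rb2, which pairs with Il3ra. Activated T cells are a known source of Csf2, whereas Csf1r, Csf2ra and Csf3r are known as myeloid receptors.

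Primary spleen CD8T cells, stimulated beforehand through CD3 and CD28 on beads, shared a 24 hr coculture with partner cells that had seen IFN-γ (10 ng/mL) over the preceding 12 hr. In the 3 control samples these partner cells received no DB2313. In the 3 DB2313 samples they had been given DB2313, a small-molecule inhibitor of the transcription factor Spi1 (PU.1), with 14 nM stated in the methods. GEO's labels call the partner cells DC, and the paper describes thioglycolate-elicited peritoneal macrophages, so the identity of the partner cells is in conflict between the sources. No mouse strain, age or genotype is stated for these cultures in the labels. Neither source says whether replicates came from separate cultures, so p-values measure only the spread between these samples, which may be technical.

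Libraries held 16611975 to 18596217 counts on genes, and a gene with a count of 0 could hold up to 3 counts, or 0.162 to 0.183 CPM in these libraries, for counting error only. CPM values are counts scaled to a common library total and normalized by TMM. Log2 fold changes are DB2313 against control, with an approximate standard error (SE) derived from the test statistic. A gene was called at an adjusted p under 0.05. All 20 T cell markers were detected, and transcripts of other cells were present as well. The 20 macrophage markers took 1.39% to 1.42% of counts in the control samples and 0.567% to 0.575% in the DB2313 samples. The T cell markers took 0.301% to 0.305% and 0.479% to 0.490%.

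Of the 9 tested members, 6 were lower and 0 were higher in the DB2313 group, and 3 were not called. Among all 14883 tested genes, 24.6% were called lower and 20.8% higher by edgeR's quasi-likelihood test. DESeq2 also called 0 members higher, and no member was higher at an unadjusted p under 0.05. The median log2 fold change was -1.01 over the 9 members and 0.02 over all tested genes. Past a fold threshold of 1 on the log2 scale, 5 members were lower, against 5.3% of tested genes, and 0 were higher, against 1.37%. In 6 members the samples of the groups did not overlap, as in 53.1% of tested genes. Of the 7 receptor chains, 5 were called lower, and Il3ra and Il5ra were not called. The summed level of the receptor chains went from 2557 to 1064 CPM. Most of that sum was Csf2rb, Csf2rb2 and Csf1r, at 1162, 605 and 573 CPM in the control group.

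**Figure D1:**
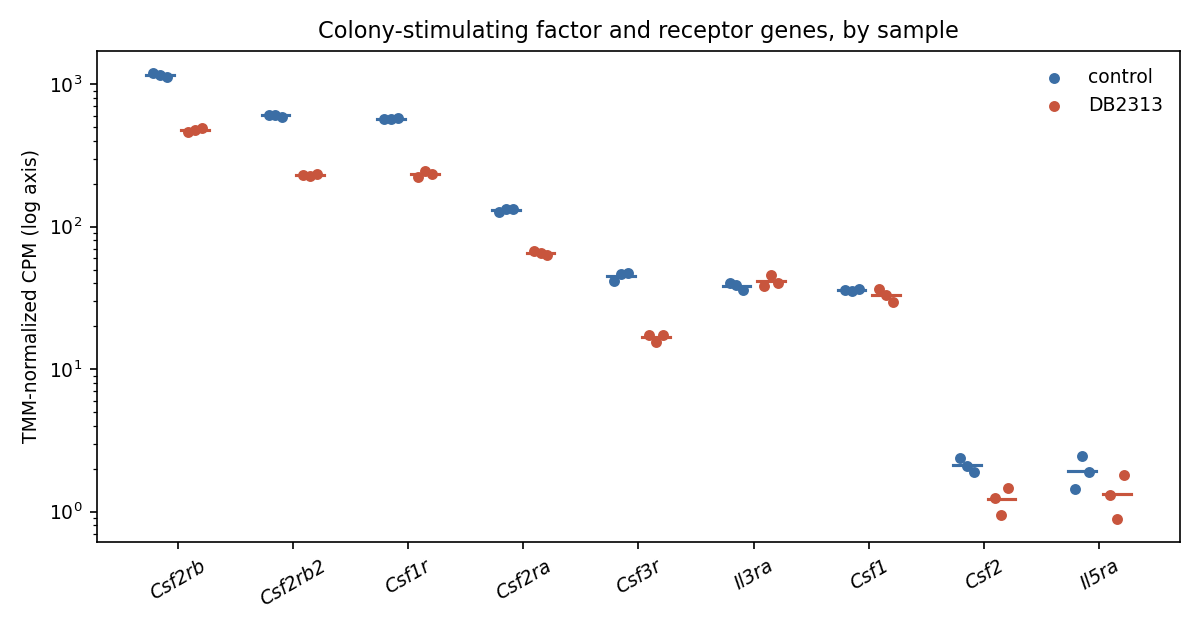
TMM-normalized CPM (log axis) of the 9 tested members in each sample, with a point per sample and a bar at the group mean. Csf2rb, Csf2rb2, Csf1r, Csf2ra, Csf3r and Csf2 separate the control samples from the DB2313 samples, while the samples overlap for Il3ra, Csf1 and Il5ra; Csf3, with at most 3 counts, is not drawn.

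Csf1, the ligand of Csf1r that supports macrophages, was not called. Csf1 (ENSMUSG00000014599, chr3:107741048-107760469, minus strand) measured 35.8, 35.1 and 36.2 CPM in the control samples and 36.8, 33.2 and 29.7 CPM in the DB2313 samples. Its highest and lowest samples both belonged to the DB2313 group, which surrounded the control samples. The control mean was 35.7 ± 0.545 CPM and the DB2313 mean 33.2 ± 3.52 CPM (SD, n = 3 each), which gave a log2 fold change of -0.10 (SE 0.08, adjusted p = 0.277 by edgeR).

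Csf2, the ligand that activated T cells secrete, was measured at a low level. Its counts were 43, 36 and 31 in the control samples and 23, 16 and 27 in the DB2313 samples. These correspond to 2.38, 2.09 and 1.89 CPM and to 1.25, 0.938 and 1.47 CPM. Every DB2313 sample lay below every control sample. Csf2 (ENSMUSG00000018916, chr11:54247271-54249667, minus strand) fell by 0.80 on the log2 scale (SE 0.30, adjusted p = 0.0356 by edgeR), from 2.12 ± 0.246 to 1.22 ± 0.266 CPM (SD, n = 3 each). The call depended on the libraries and the tool: the adjusted p was 0.132 without control 1, 0.0806 without control 2, 0.0665 without DB2313 1, 0.127 without DB2313 2 and 0.110 with DESeq2. An antisense gene, Gm12223, covers 2068 bases of Csf2 and had at most 1 count in any sample.

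Csf2 was also set against the T cell markers of the same sample, as the log2 CPM of Csf2 minus the mean log2 CPM of the 20 markers. A pseudocount of 0.5 CPM was added to each value before the log2. This difference was -5.40, -5.55 and -5.66 in the control samples and -6.69, -7.00 and -6.53 in the DB2313 samples. The groups did not overlap, and the difference between their means was -1.20 (exact permutation test, two-sided, p = 0.1, the smallest that 3 samples against 3 allow). The pseudocount is large beside the level of Csf2 and makes its change smaller. In the edgeR fit with libraries scaled to the T cell markers, the log2 fold change of Csf2 was -1.38 (SE 0.30). All 20 T cell markers rose with TMM, and the median of their log2 fold changes was 0.59. Tcf7, a transcription factor of T cells and the highest of them in CPM, went from 558 ± 18.5 to 819.6 ± 16.2 CPM (SD, n = 3 each).

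Csf3, the granulocyte growth factor, had 0, 3 and 0 counts in the control samples and 1, 0 and 0 in the DB2313 samples. Csf3 (ENSMUSG00000038067, chr11:98701263-98703629, plus strand) was at or below the 3 counts that a count of 0 allows, so a difference was not detectable at this depth and no fold change is given.

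Csf1r, the M-CSF receptor, measured 574, 571 and 575 CPM in the control samples. In the DB2313 samples it measured 222, 244 and 233 CPM. The control samples lay within a few CPM of each other and far above every DB2313 sample. The Csf1r mean went from 573 ± 2.44 to 233 ± 11.2 CPM (SD, n = 3 each), which was 2.46-fold lower (log2 fold change -1.30, SE 0.04, adjusted p = 8.86e-19 by edgeR). In these bulk samples, fewer cells of a type and less RNA per cell cannot be told apart. Csf1r (ENSMUSG00000024621, chr18:61105572-61132149, plus strand) shares 871 bases with Hmgxb3 on the opposite strand, and whether counting used the strand is not given in the sources used here. Hmgxb3 had 693 to 702 counts in the control samples and 716 to 772 in the DB2313 samples.

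Csf3r, the G-CSF receptor of neutrophils and their precursors, measured 41.5, 46.3 and 47.5 CPM in the control samples and 17.2, 15.5 and 17.4 CPM in the DB2313 samples. The groups did not overlap. Csf3r (ENSMUSG00000028859, chr4:126024550-126044440, plus strand) had the lowest log2 fold change of the members, -1.43 (SE 0.08, adjusted p = 3.31e-13 by edgeR), and its mean went from 45.1 ± 3.19 to 16.7 ± 1.08 CPM (SD, n = 3 each), 2.69-fold lower.

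Csf2ra, the alpha chain that gives the GM-CSF receptor its specificity, measured 127, 134 and 133 CPM in the control samples. It measured 68.0, 64.9 and 63.0 CPM in the DB2313 samples. Each DB2313 sample lay below each control sample. The mean went from 131 ± 3.81 to 65.3 ± 2.52 CPM (SD, n = 3 each), 2.01-fold lower (log2 fold change -1.01, SE 0.04, adjusted p = 5.6e-15 by edgeR). Csf2ra (ENSMUSG00000059326, chr19:61224402-61228418, minus strand) sat at the fold threshold. With library size scaling its log2 fold change was -0.91, and it stayed called lower but no longer passed that threshold.

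Csf2rb, the signalling beta chain shared by the GM-CSF, IL-3 and IL-5 receptors, measured 1198, 1168 and 1119 CPM in the control samples and 459.5, 477 and 489.7 CPM in the DB2313 samples. The groups were far apart relative to the spread within each. Csf2rb (ENSMUSG00000071713, chr15:78325752-78353847, plus strand) went from a mean of 1162 ± 39.9 to 475 ± 15.1 CPM (SD, n = 3 each), 2.44-fold lower (log2 fold change -1.29, SE 0.03, adjusted p = 3.83e-19 by edgeR).

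Csf2rb2, the beta chain paralog that serves the IL-3 receptor, measured 612, 611 and 593 CPM in the control samples and 232, 226 and 234 CPM in the DB2313 samples, without overlap. Csf2rb2 (ENSMUSG00000071714, chr15:78282507-78305721, minus strand) was 2.63-fold lower, with means of 605 ± 10.6 and 230.5 ± 4.31 CPM (SD, n = 3 each), a log2 fold change of -1.39 (SE 0.03) and an adjusted p of 5.92e-20 by edgeR.

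The beta chain genes lie next to each other on opposite strands, and reads from stretches that they share could be split between them. Over 2631 aligned bases of their coding sequences, 2505 were identical (95.2%). Of the stretches of 50 bases in their transcripts, 892 occurred in both, which is 18.4% of the 4851 stretches of Csf2rb and a like share of the 4691 of Csf2rb2. For Csf2rb the share was 6.96% with stretches of 100 bases and 3.47% with stretches of 150 bases. The paper's methods do not state the read length. The first 120 coding bases of each are shown to illustrate how close the paralogs are, with capitals at the 4 bases that differ in the alignment (GENCODE M21 transcripts, 5′ to 3′).
Csf2rb: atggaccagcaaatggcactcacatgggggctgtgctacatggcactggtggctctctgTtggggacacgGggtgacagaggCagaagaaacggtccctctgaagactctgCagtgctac
Csf2rb2: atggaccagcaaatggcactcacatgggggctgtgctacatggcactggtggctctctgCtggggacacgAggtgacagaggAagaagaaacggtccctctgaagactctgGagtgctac

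Because of these shared stretches the value of each paralog on its own is uncertain, so their sum was tested as well. The summed counts fell by 1.32 on the log2 scale (SE 0.03, adjusted p = 6.19e-20 by edgeR). Csf2rb2 took 33.8%, 34.3% and 34.6% of the counts of the pair in the control samples and 33.5%, 32.1% and 32.3% in the DB2313 samples. The DB2313 samples lay just below the control samples. The means were 34.3% ± 0.425 and 32.7% ± 0.748 (SD, n = 3 each), a difference of -1.61 percentage points (exact permutation test, two-sided, p = 0.1, the smallest possible), beside log2 fold changes of -1.29 for Csf2rb and -1.39 for Csf2rb2.

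Il3ra, the IL-3 alpha chain that pairs with both beta chains, was not called. It measured 40.3, 38.9 and 36.1 CPM in the control samples and 38.6, 45.4 and 40.1 CPM in the DB2313 samples. The groups overlapped. Il3ra (ENSMUSG00000068758, chr14:14346275-14356011, plus strand) had means of 38.4 ± 2.15 and 41.4 ± 3.58 CPM (SD, n = 3 each) and a log2 fold change of 0.10 (SE 0.07, adjusted p = 0.249 by edgeR). Its direction depended on the scaling, since it was called higher with library size scaling (0.20, adjusted p = 0.024) and lower when libraries were scaled to the T cell markers (-0.48). The antisense gene Gm48860, which shares 990 bases with Il3ra, had at most 5 counts.

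Il5ra, the alpha chain of the IL-5 receptor of eosinophils and some B cells, was measured at a low level. Its counts were 26, 42 and 31 in the control samples and 24, 15 and 33 in the DB2313 samples, and the groups overlapped. Il5ra (ENSMUSG00000005364, chr6:106710357-106749037, minus strand) had means of 1.93 ± 0.502 and 1.32 ± 0.458 CPM (SD, n = 3 each) and a log2 fold change of -0.53 (SE 0.33, adjusted p = 0.204 by edgeR).

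Levels can be compared between genes only per length, here as CPM per kilobase of the deposited gene length (RPKM). The deposited length of Csf2rb is 7277 bases, but its transcript compared above has 4900. For Csf2rb2 both lengths are 4740 bases. A shorter length would raise the RPKM of Csf2rb, so its distance from the other genes depends on the length used. Log2 changes between the groups do not. In the control group Csf2rb stood highest at 159.6 ± 5.49 RPKM, followed by Csf2rb2 at 127.7 ± 2.23, Csf1r at 117.4 ± 0.499 and Csf2ra at 70.9 ± 2.06 RPKM (SD, n = 3). Il3ra (13.0 ± 0.726 RPKM) and Csf3r (12.5 ± 0.884 RPKM) came next and overlapped each other. Csf1 (6.76 ± 0.103), Csf2 (2.65 ± 0.308), Il5ra (0.539 ± 0.14) and Csf3 (0.0412 ± 0.0713 RPKM) followed, each below all samples of the gene before it. In the DB2313 group Csf2rb kept the first place at 65.3 ± 2.08 RPKM. Csf2rb2 (48.6 ± 0.91) and Csf1r (47.7 ± 2.3 RPKM) overlapped. Csf1, at 6.29 ± 0.666 RPKM, stood above Csf3r, at 4.63 ± 0.299 RPKM, the reverse of their order in the control group.

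The chains of the GM-CSF receptor were also compared with each other. The log2 ratio of Csf2ra to Csf2rb in RPKM was -1.26, -1.15 and -1.10 in the control samples and -0.78, -0.90 and -0.98 in the DB2313 samples. There was thus relatively more alpha chain mRNA in each DB2313 sample than in any control sample. The mean ratio rose by 0.28 on the log2 scale (exact permutation test, two-sided, p = 0.1, the smallest possible), or from 2.25 ± 0.134 to 1.85 ± 0.13 units of Csf2rb per unit of Csf2ra (SD, n = 3 each). Since reads may be split between the beta paralogs, the ratio of Csf2ra to the sum of both was computed too, and its mean went from -2.02 to -1.69 on the log2 scale, a difference of 0.33.

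**Figure D2:**
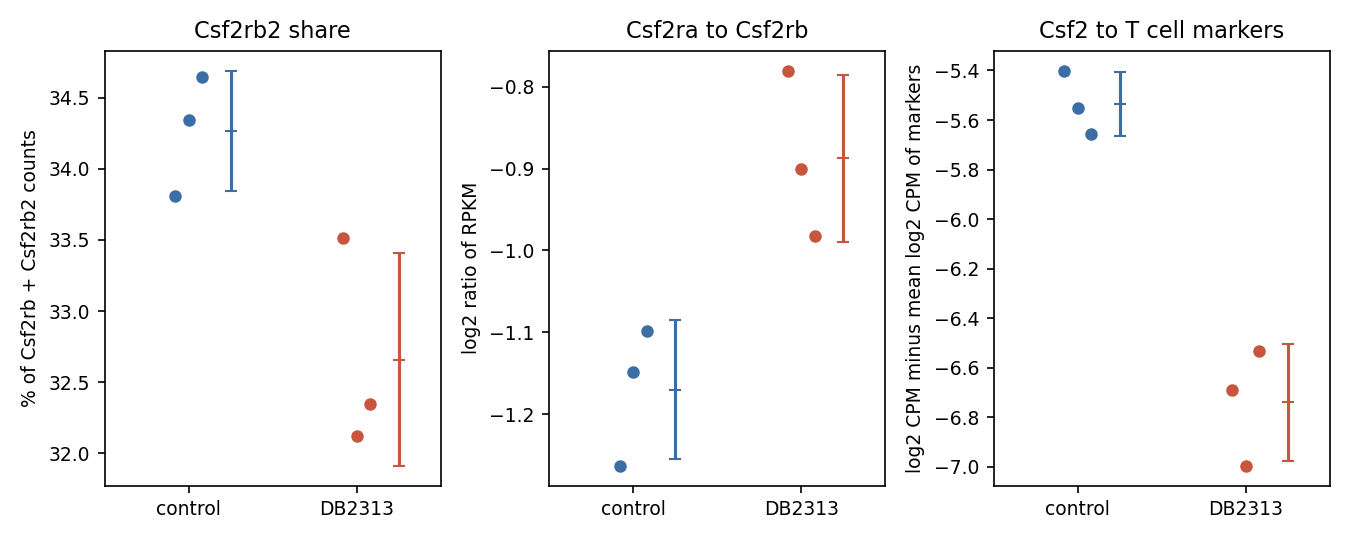
Left, the percent of the summed Csf2rb and Csf2rb2 counts taken by Csf2rb2. Middle, the log2 ratio of Csf2ra to Csf2rb RPKM. Right, the log2 CPM of Csf2 minus the mean log2 CPM of the T cell markers, with 0.5 CPM added to each value. Points are samples and bars are the mean ± SD of 3 samples, and in each panel the groups do not overlap, with differences of -1.61 percentage points, 0.28 and -1.20; the axes do not start at 0.

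Spi1, the target of DB2313, is a transcription factor of myeloid cells that is known to bind purine-rich sites such as GAGGAA, the PU box, and whose sites in the Csf1r, Csf2ra and Csf3r promoters are textbook examples. Promoter windows of 300 bases, from 250 before to 50 after the RefSeq start (GRCm38.p6), were read for 7 of the 10 members and searched for GAGGAA on both strands. No window of Csf1r, Csf2rb or Csf3 was among them. A match was found in 4 of the 7 windows, those of Csf2ra, Csf3r, Csf2rb2 and Il5ra, and none in those of Csf1, Csf2 and Il3ra. The motif occurs in 28.3% of the 32851 windows of all genes. A match describes the letters only, and no binding was measured. The windows of the 3 called genes with a match are shown 5′ to 3′ on the strand of each gene, with the motif or its reverse complement in capitals. They lie at chr19:61228369-61228668 (Csf2ra, minus strand), chr4:126024409-126024708 (Csf3r, plus strand) and chr15:78305672-78305971 (Csf2rb2, minus strand).
Csf2ra: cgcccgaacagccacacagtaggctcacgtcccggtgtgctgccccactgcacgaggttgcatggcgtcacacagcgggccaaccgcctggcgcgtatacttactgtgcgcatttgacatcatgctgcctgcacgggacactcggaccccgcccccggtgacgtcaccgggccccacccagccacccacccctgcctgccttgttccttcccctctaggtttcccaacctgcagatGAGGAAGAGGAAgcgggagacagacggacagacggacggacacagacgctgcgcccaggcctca
Csf3r: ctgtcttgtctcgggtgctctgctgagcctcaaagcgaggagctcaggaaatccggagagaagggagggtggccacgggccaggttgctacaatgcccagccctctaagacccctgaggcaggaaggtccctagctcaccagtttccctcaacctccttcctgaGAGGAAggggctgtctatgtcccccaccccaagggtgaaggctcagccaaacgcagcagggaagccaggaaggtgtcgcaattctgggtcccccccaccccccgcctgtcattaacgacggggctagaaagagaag
Csf2rb2: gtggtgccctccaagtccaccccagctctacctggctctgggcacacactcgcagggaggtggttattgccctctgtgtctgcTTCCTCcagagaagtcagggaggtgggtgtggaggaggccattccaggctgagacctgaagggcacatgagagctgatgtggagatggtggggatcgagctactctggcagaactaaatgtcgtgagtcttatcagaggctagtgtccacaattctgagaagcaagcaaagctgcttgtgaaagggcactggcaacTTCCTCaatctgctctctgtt

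In the Csf2ra window the motif occurred as 2 copies in direct succession, at -14 and -8 from the RefSeq start. In the Csf3r window it stood at -86, and in the Csf2rb2 window its reverse complement stood at -167 and +30. The AP-1 motif TGANTCA was found in 1 window, that of Il5ra, against 7.81% of all windows. The RefSeq start of Csf3r lies 109 bases downstream of the start in the count table, that of Il3ra 220 bases downstream and that of Csf2 232 bases upstream.

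Macrophage markers were read beside Csf1r, Csf2ra and Csf2rb. Of 20 macrophage markers, 19 fell and 1, the scavenger receptor gene Marco, named after its values were seen, rose. The median over the list was -0.99 on the log2 scale. Lyz2, the lysozyme of macrophages and the highest of these markers in CPM, measured 7702 ± 133 and 2084 ± 36.6 CPM (SD, n = 3 each). Among the 20 markers, 7 had a lower log2 fold change than Csf1r, 7 a lower one than Csf2rb and 10 a lower one than Csf2ra. Set against the mean log2 CPM of the macrophage markers, Csf2rb stood at 2.78, 2.74 and 2.66 in the control samples and at 2.45, 2.45 and 2.54 in the DB2313 samples, a difference of -0.25 (exact permutation test, two-sided, p = 0.1, the smallest possible). That test covers the spread between samples and not between markers. The log2 fold changes of the 20 markers ran from -2.16 to 0.78 (SD 0.67), so the difference of -0.25 depends on which markers are listed. The part of the macrophage markers in the receptor changes was not tested otherwise.

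Markers of granulocytes and related cells were read beside Csf3r, Il3ra and Il5ra. Of 10 neutrophil markers, 9 fell and 1 rose. Their median was -1.71 on the log2 scale, and their summed share was 0.211% to 0.212% of counts in the control samples and 0.076% to 0.0777% in the DB2313 samples. The highest of them in CPM was S100a9, a calcium-binding protein of neutrophils, at 514 ± 4.98 and 156 ± 7.8 CPM (SD, n = 3 each). The log2 fold change of 7 of the 10 was lower than that of Csf3r. Of 6 tested eosinophil markers, 3 fell, 1 rose and 2 were not called, with a median of -0.35 on the log2 scale. Prg2, an eosinophil granule protein, measured 56.4 and 35.1 CPM. Of 8 tested mast cell and basophil markers, 4 fell, 2 rose and 2 were not called, with a median of -0.10 on the log2 scale. Cpa3, a mast cell protease, measured 460.1 and 186 CPM. The 2 that rose, Mcpt8 and Fcer1a, were named after their values were seen. Mcpt8 measured 199 and 286 CPM (log2 fold change 0.52) and Fcer1a 24.7 and 34.8 CPM (0.50). The log2 fold changes of this list ran from -5.40 to 0.52, so its median hides large falls. Among the 4 that fell, Tpsb2 and Cma1 were likewise named after their values were seen. Tpsb2 measured 108.5 and 2.57 CPM (-5.40) and Cma1 28.1 and 9.38 CPM (-1.59). Of 9 tested dendritic cell markers, 7 fell and 1 rose, with Ccl22, a chemokine of mature dendritic cells, at 2189.7 and 1188 CPM. Their log2 fold changes ran from -3.54 to 0.36 with a median of -0.44. Ccr7 and Fscn1, named after their values were seen, fell less than Ccl22. They went from 889 to 828 CPM (-0.10) and from 593 to 517 CPM (-0.20). The plasmacytoid dendritic cell marker Siglech had 0 counts in every sample. The part of these lists in the results for the receptors was not tested.

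**Figure D3:**
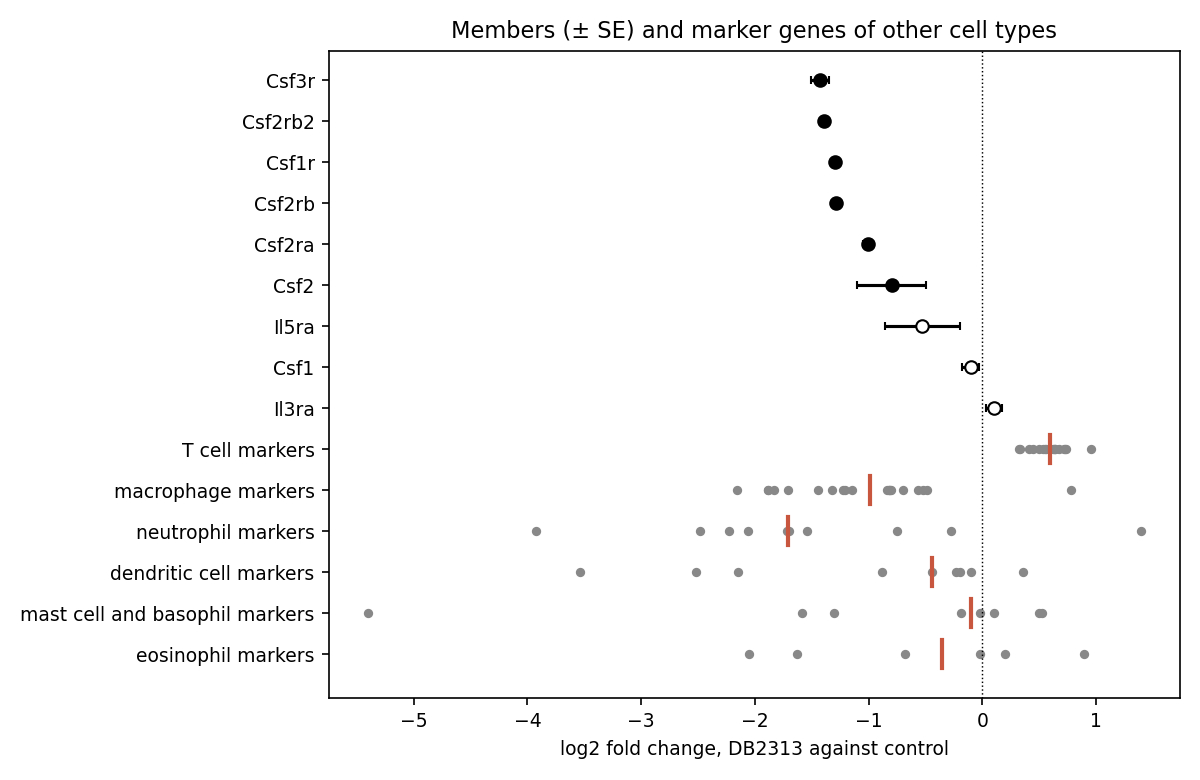
Log2 fold change, DB2313 against control, of the 9 tested members (black, ± SE; filled where called) and of the marker genes of 6 cell types (grey points, a gene each; the red bar is the list's median). The receptors from Csf3r to Csf2ra lie between -1.43 and -1.01, within the range of the macrophage markers, and all T cell markers lie above 0.

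B cell and stromal markers were counted too. Of 7 B cell markers, 4 rose, 1 fell and 2 were not called, with Cd79b, a chain of the B cell receptor, at 13.9 and 19.2 CPM in the control and DB2313 groups. Of 5 tested stromal and endothelial markers, 2 rose and 3 were not called, with Pecam1 at 115 and 127 CPM. By T cell marker scaling the log2 fold changes of Cd79b and Pecam1 were below 0 (-0.12, not called, and -0.44).

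A list of 70 other genes of these pathways was read by role. Of the 64 that were tested, 38 (59.4%) fell, 13 (20.3%) rose and 13 were not called, beside 24.6% and 20.8% among all tested genes, and the median log2 fold change was -0.15.

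Most related ligands had too few counts to be tested. Only Flt3l, the growth factor of dendritic cell precursors, was tested among 7 of them, with a log2 fold change of 0.17 that was not called. It was called higher with library size scaling (0.27), upper quartile scaling (0.24), among protein-coding genes only (0.18) and without control 3 (0.23), and lower by T cell marker scaling (-0.41). Il3 and Il5, which bind Il3ra and Il5ra and were named after their values were seen, were not tested. Il3 had 16, 8 and 4 counts in the control samples and 5, 8 and 1 in the DB2313 samples, and Il5 had at most 1 count.

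The 4 related growth factor receptors rose with TMM, whereas none was called higher with T cell marker scaling. Epor, the erythropoietin receptor, rose by 1.04 on the log2 scale (SE 0.26, adjusted p = 0.00235 by edgeR), from 1.37 to 2.84 CPM. The stem cell factor receptor Kit and the Flt3l receptor Flt3 were named after their values were seen. Kit measured 74.8 and 81.9 CPM (log2 fold change 0.13) and was not called by DESeq2 or without control 2, DB2313 1 or DB2313 3 (0.10, 0.12 and 0.14), and was lower by T cell marker scaling (-0.45). Flt3 measured 28.2 and 36.2 CPM (0.36) and was likewise lower by that scaling (-0.22).

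Of 24 genes of receptor-proximal signalling, 18 fell, 3 rose and 3 were not called. The largest fall was in Fgr, a Src-family kinase of myeloid cells, at 61.6 and 14.5 CPM (log2 fold change -2.09, SE 0.08). The largest rises were in Jak1, a kinase of many cytokine receptors, at 497 and 599 CPM (0.27, SE 0.03), and Stat5b, a transcription factor that the beta chain activates, at 216 and 247 CPM (0.19, SE 0.04). With libraries scaled to the T cell markers, Jak1 and Stat5b were lower (-0.31 and -0.39). Jak2 and Stat5a, named after their values were seen, were among the genes that fell with TMM. Jak2 went from 460 to 275 CPM (-0.74, SE 0.03) and Stat5a from 129 to 112 CPM (-0.21, SE 0.04).

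Of 19 feedback genes and targets, 12 fell, 5 rose and 2 were not called. Irf8, a transcription factor of monocyte and dendritic cell development, went from 333 to 158 CPM (log2 fold change -1.08, SE 0.03), and Il1rn, the IL-1 receptor antagonist, from 123 to 61.8 CPM. Pim2, a kinase induced by cytokines, went from 89.5 to 135 CPM (0.59, SE 0.04), and was not called by T cell marker scaling (0.011, adjusted p = 0.806 by edgeR). Bcl2, a survival gene, rose by 0.20 with TMM and was lower by T cell marker scaling (-0.38). Spi1, named because it is the target of DB2313, went from 286 ± 6.75 to 156 ± 6.2 CPM (SD, n = 3 each), a log2 fold change of -0.88 (SE 0.04). The median of the 20 macrophage markers was -0.99 on the log2 scale, and whether Spi1 changed apart from them was not tested.

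Of 16 regulators of the ligand genes and their mRNAs, 8 fell, 1 rose and 7 were not called. The AP-1 subunits Fosl2 and Fos had log2 fold changes of -0.84 and -0.59. The gene that rose was Zfp36l2, an mRNA-binding protein (0.15, but -0.44 by T cell marker scaling).

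**Figure D4:**
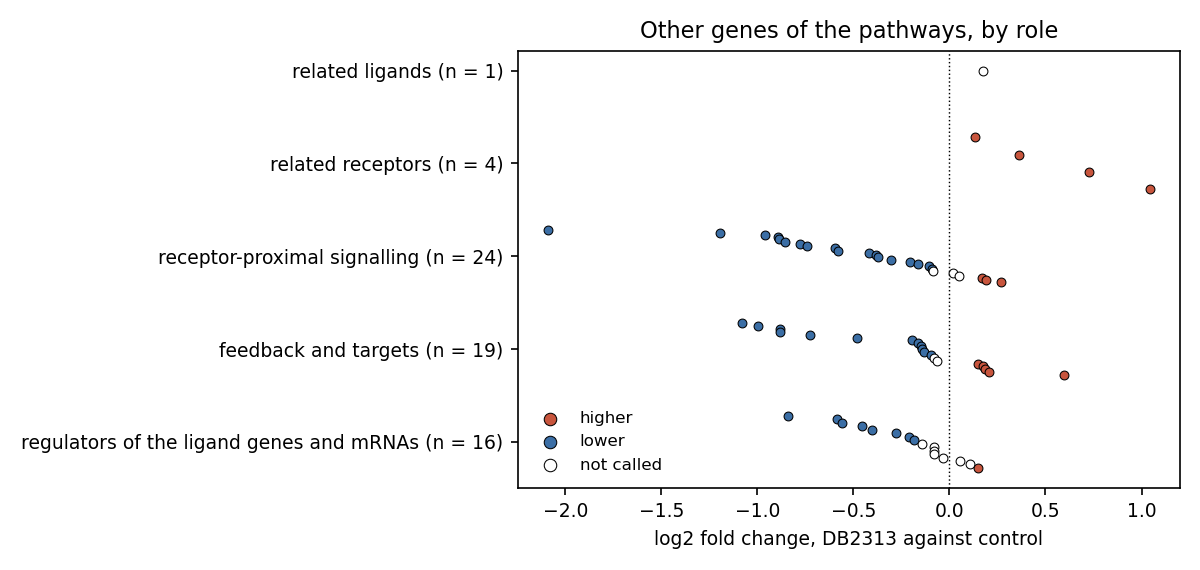
Log2 fold change, DB2313 against control, of the 64 tested genes of the pathway list in 5 roles, with a point per gene coloured by its call. The 4 related receptors lie above 0, whereas 18 of 24 signalling genes were called lower, down to -2.09 for Fgr.

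Profiles over the 6 samples were compared by the Euclidean distance of centred log2 CPM, with 0.5 CPM added. At the low level of Csf2 the added 0.5 CPM made its change smaller, so its nearest genes depend on that setting. Nearest to Csf2 were Rab20 (distance 0.155), Siglec1 (0.212) and Myo9a (0.215). Nearest to Csf2rb were Pgap1 (0.0743), Mtmr4 (0.0838) and Tspoap1 (0.084). Nearest to Csf1r were Asb2 (0.0782), Hpse (0.0944) and Mtmr4 (0.106). Ranked by Pearson's r in place of distance, other genes came first for all 3 members. An r above 0.99 was reached by 10 genes for Csf2, 585 for Csf2rb and 622 for Csf1r. The genes named are thus not particular partners of Csf2rb or Csf1r by that measure.

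The split of all calls depended on how the libraries were scaled. Of all calls, 54.2% were lower with TMM, 57.3% with DESeq2, 36.6% with library size scaling, 41.8% with upper quartile scaling and 98.5% with scaling to the T cell markers. The median log2 fold change of all tested genes was 0.02, 0.11, 0.08 and -0.56 with TMM, library size, upper quartile and T cell marker scaling. Csf1r, Csf2ra, Csf2rb, Csf2rb2 and Csf3r were called lower under each of these scalings. Relative to the T cell markers Csf1 (-0.69) and Il5ra (-1.11) were called lower as well.

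**Figure D5:**
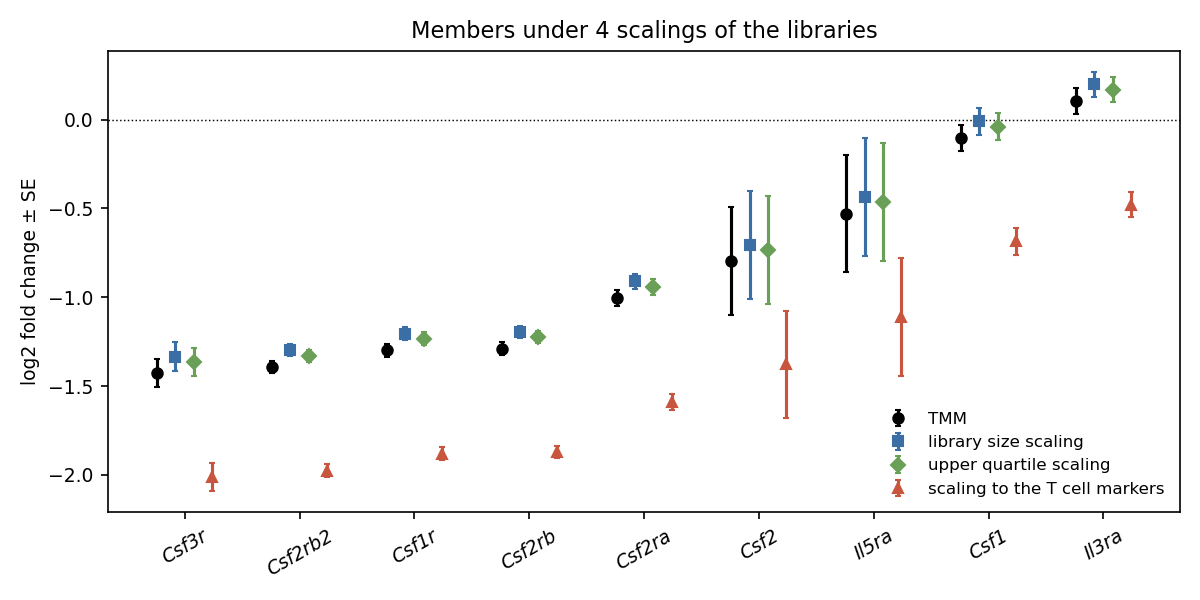
Log2 fold change ± SE of the 9 tested members with TMM, library size, upper quartile and T cell marker scaling. Csf3r, Csf2rb2, Csf1r and Csf2rb lie below -1 under all 4 scalings, Csf2ra lies at -1.01 with TMM and -0.91 with library size scaling, and Il3ra changes sign, from 0.10 with TMM to -0.48 with T cell marker scaling.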

How the data were processed

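RNA-seq of CD8T cells from coculture was analysed, with 3 control and 3 DB2313 samples grouped by GEO's labels. The authors deposited raw counts per gene, without normalization, with gene lengths and coordinates. The paper's methods name LifeScope for alignment and counting, whereas the submitters' processing notes list CASAVA 1.8, HISAT2 2.0.5 and featureCounts 1.5.0-p3. Genome build, annotation and strand setting are not given in the sources used here; 98.3% of the genes shared with GENCODE M21 had its GRCm38 coordinates.

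From the counts, 14883 genes passed filterByExpr and were tested with edgeR 4.0.16 (TMM, glmQLFit, glmQLFTest) in R 4.3.3, with Benjamini-Hochberg adjustment over all tested genes. Calls had an adjusted p under 0.05; a fold threshold of 1 on the log2 scale was read beside it. The SE with edgeR is the absolute log2 fold change divided by the square root of the F statistic of the test. Ratios within a sample were tested by two-sided exact permutation. A pseudocount of 0.5 CPM was used for marker differences and profiles. Alternatives were DESeq2 1.42.0 (the paper's tool) and its size factors, library size, upper quartile and T cell marker scaling, other filters, protein-coding genes, a replicate block and leaving out each sample.

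The members and the marker and pathway lists were chosen with earlier results of these data known. The genes named were all members, in each pathway role the 2 called genes that rose most and the 2 that fell most, the 3 genes nearest in profile to Csf2, Csf2rb and Csf1r (protein-coding, at least 10 CPM on average), and the gene of each marker list with the highest CPM; exceptions are stated, and some genes that this rule names are not reported here. Coding sequences came from GENCODE M21 and promoters from RefSeq. Depth limits cover counting error only, because PCR copies could not be told from separate molecules.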

Additional observations from a re-analysis of the deposited data

How the results depend on the processing

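Over the 9 tested members and the alternatives run, 135 of 146 comparisons kept their direction and side of the threshold, 7 lost the call, 3 gained one and 1 changed sign, Il3ra with T cell marker scaling (-0.48). All 7 losses were of Csf2, which did not pass the fold threshold, and whose adjusted p was 0.110 by DESeq2, 0.0566 if scaled by library size, and 0.132, 0.0806, 0.0665 and 0.127 without control 1, control 2, DB2313 1 and DB2313 2, while its log2 fold change stayed between -0.95 and -0.65 over the 6 samples left out in turn. Members called lower thus numbered 5 or 6 in these runs, and 9 with T cell marker scaling. Members called higher numbered 1 with library size scaling, Il3ra. Csf2ra was no longer past the fold threshold with library size or upper quartile scaling or without control 2, control 3 or DB2313 3 (-1.04 to -0.98 over the samples left out), which left 4 members past it. Over all genes, lower calls numbered 789 and higher calls 204 with the fold threshold, 11471 and 177 with T cell marker scaling, and higher calls 4931 with library size scaling. In the pathway list, lower calls numbered 3 and higher calls 1 with the fold threshold, and 61 and 0 with T cell marker scaling. That scaling also turned Jak1 (-0.31), Stat5b (-0.39), Bcl2 (-0.38), Kit (-0.45), Flt3 (-0.22), Flt3l (-0.41), Zfp36l2 (-0.44), Tcf7 (-0.027), Cd79b (-0.12) and Pecam1 (-0.44), as its construction sets the T cell markers to no change. Replicate numbers gave no pairing, with correlations of same-numbered samples of 0.0138, -0.0039 and 0.0187. With the replicate block, 6 members were lower and 0 higher, the same genes, and Csf2 had an adjusted p of 0.0497. Without a filter on low counts, Csf3 had an adjusted p of 0.650 with edgeR. Counts under about 50 limit what can be said of Csf2, Il5ra and Csf3.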
